A study of Ovis aries with 8 samples.

Results

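The genes described here are those of cytokines, interferons and toll-like receptors measured in carotid arteries of sheep fetuses. A probe was taken when the description printed for it in the array files contained, in any letter case, interleukin, chemokine, interferon, toll-like receptor, tumor necrosis factor or colony stimulating factor. This text rule, which used no measured value, took 73 of the 15008 non-control probes on the array. The 73 probes lay on 105 spots and stood for 43 genes, of 14372 gene or transcript names on the array. Of these genes, 29 had more than 1 probe, so probes of 1 gene share a transcript and are not independent of each other. By accession, 52 probes matched a sheep RefSeq gene and 17 more matched by the name printed for them. The other 4 probes kept the name in their description, namely TNF, TLR6 and, for 2 probes, the granulocyte colony stimulating factor named CSF. Many other probes on this array carry no gene description, so a cytokine gene on such a probe was not taken.

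Total RNA came from fetuses at gestation day 140, and both groups were fetuses of ewes fed alfalfa pellets. The 4 normoxia fetuses came from ewes held at an elevation of 300 m. The 4 hypoxia fetuses came from ewes held at 3801 m from gestation day 30 until day 135, which the sample titles give as 110 days of hypoxia. Each RNA was labelled with Cy3 and hybridised to an ovine array, and the labels tell the fetuses of a group apart only by a number, so the tests below measure the spread between these 8 arrays. Cell types were not separated, and fewer cells of a type cannot be told apart from less RNA per cell. The smooth muscle genes CNN1, MYLK and MYL6 were well above background on all 8 arrays, with mean log2 levels of 7.90, 5.99 and 8.44 in normoxia. Among the endothelial markers, NOS3, the endothelial nitric oxide synthase, was well above background on all 8 arrays, while TEK and KDR were so on 4 arrays each.

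Cytokines are secreted proteins through which cells of the immune system and of tissues signal to each other. Interleukins, chemokines, interferons and tumor necrosis factor act on surface receptors of their target cells, and chemokines direct the movement of leukocytes. Toll-like receptors bind molecules of microbes and of damaged cells, and signal through adaptors such as MYD88 to NF-kappa-B and to interferon regulatory factors, which switch on cytokine and interferon genes. Type I interferons bind a receptor made of IFNAR1 and IFNAR2, and the cells that respond make antiviral proteins such as MX1 and ISG15. In arteries, smooth muscle, endothelium and resident leukocytes can all take part in this signalling.

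Most of these genes gave weak signals in the fetal artery. A probe was counted as well above background on an array when the scanner software's flag of that name was set for any of its spots. In normoxia, 43, 26, 64 and 26 of the 73 probes were well above background on arrays 1 to 4. In hypoxia the counts were 37, 26, 71 and 26 on arrays 1 to 4. The group means were 39.75 ± 18.0 probes (SD, n = 4) in normoxia and 40 ± 21.3 (SD, n = 4) in hypoxia, so the groups overlapped wholly and the arrays of each group ranged from 26 probes to 64 or 71. Arrays numbered 3 had the highest count in both groups, and arrays numbered 2 and 4 the lowest. All probes of the array showed part of this order, since 71.4%, 61.6%, 88.4% and 59.7% of them were well above background in normoxia and 67.9%, 62.9%, 94.8% and 68.9% in hypoxia.

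**Figure D1:**
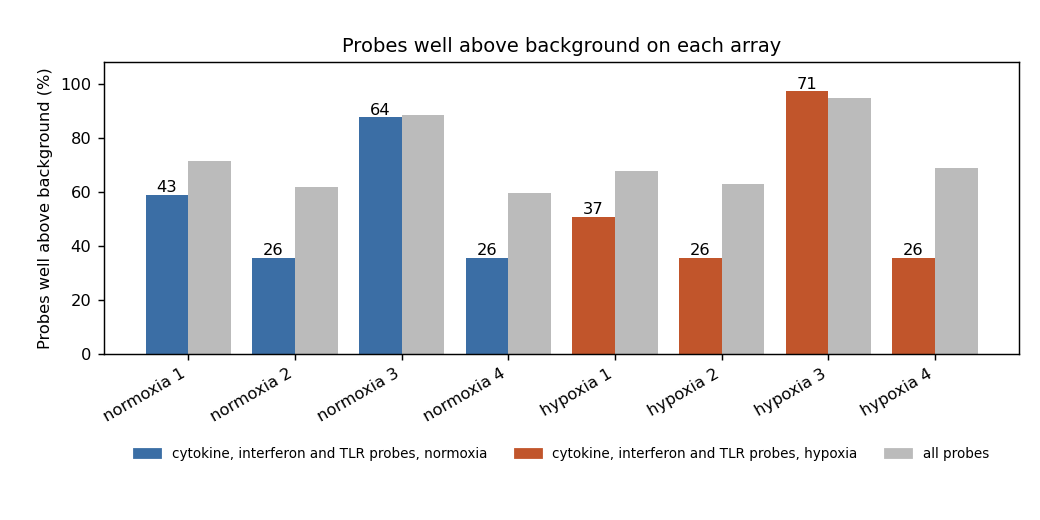
Percent of probes well above background on each of the 8 arrays (x axis: array, y axis: percent), for the 73 cytokine, interferon and toll-like receptor probes (coloured bars, with the number of probes on top) and for all 15008 probes (grey bars). The coloured bars reach 64 probes on normoxia 3 and 71 on hypoxia 3 and stand at 26 probes on both arrays numbered 2 and both numbered 4.

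Across arrays, 16 probes of 12 genes were well above background on all 8. That is 21.9% of the 73 probes, against 49.8% of all probes on the array. Another 25 probes were well above background on 4 to 7 arrays, 8 on 3 arrays, 17 on 2, 5 on 1 and 2 on no array. The most common pattern short of all 8 arrays, found for 15 probes, was a signal well above background on normoxia 3 and hypoxia 3 only. A further 6 probes had it on the arrays numbered 1 and 3 of both groups and on no other.

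The classical inflammatory cytokine IL6 was among the weakest, with its probe well above background on 2 of 8 arrays. The anti-inflammatory cytokine IL10 was so on 3 and 2 arrays for its 2 probes, and IL1A, an alarmin released by damaged cells, on 2 arrays for each probe. IL15, a growth factor of natural killer and memory T cells, reached 1 and 2 arrays, and IL3, which acts on blood cell precursors, 2 arrays. Of the 10 toll-like receptor genes, 6 were well above background on under 4 arrays with every probe. The probe of TLR1 was not well above background on any array. Those of TLR2, TLR7 and TLR8 were so on 2 arrays each, those of TLR9 on 1 and 2 arrays, and that of TLR5 on 3. In all, 14 of the 43 genes had no probe well above background on 4 or more arrays, and these include the chemokine receptor CCR9 and CSF.

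Probes were tested when they were well above background on at least 4 of 8 arrays and had a value on each. This left 40 of the 73 probes, for 29 genes, and 11216 probes of the whole array. A TLR6 probe that was well above background on all 8 arrays was left out because its spot on normoxia 2 was marked as an outlier. Levels below are log2 of the processed intensity relative to the array's own 75th percentile, so that 0 is as bright as that percentile. Where a spot's signal was too low, the scanner software had put in a surrogate value, which lies near the floor of that array and is not a measurement of the gene. Such values occurred, on at least 1 spot, in 11 of the 40 tested probes, all on arrays numbered 2 and 4: 8 probes on normoxia 2, 3 on normoxia 4, 5 on hypoxia 2 and 8 on hypoxia 4. Differences of these probes include them and have no exact size. How bright a spot is also depends on its probe, so the order of genes is one of signals, not of transcript amounts.

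The brightest of these genes in normoxia was IFNAR1, a chain of the type I interferon receptor. Its levels were 2.08, 2.60, 2.02 and 2.67 on normoxia arrays 1 to 4 and 1.49, 2.42, 1.63 and 2.33 on hypoxia arrays 1 to 4. The normoxia mean was 2.34 ± 0.34 (SD, n = 4), and on average 91.6% of the probes of a normoxia array were dimmer. The ranges of the groups overlapped. ISG15, a ubiquitin-like protein that interferon induces, came next with 1.68, 0.60, 0.76 and 1.82 in normoxia and 1.77, 1.18, 0.07 and 2.18 in hypoxia, and the probe is described on the array as interferon stimulated gene 17. Its normoxia mean was 1.22 ± 0.62. MX1, an interferon-inducible GTPase active against viruses, had levels of 1.55, 0.21, -0.10 and 1.30 in normoxia and 1.14, 0.43, -0.88 and 0.82 in hypoxia. For ISG15 and MX1, the arrays numbered 1 and 4 were above the array numbered 3 of their group, in both groups. The normoxia mean of MX1 was 0.74 ± 0.81, and no gene below it in the order reached a mean of 0.

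IFNAR2, the other chain of that receptor, had a normoxia mean of -0.52 ± 0.55, with levels of 0.13, -0.84, -0.26 and -1.10. TLR3, the receptor for double-stranded RNA, had levels of -1.37, -0.56, -0.43 and -0.17 in normoxia, with a mean of -0.63 ± 0.52. CCL25, a chemokine known from thymus and small intestine, had levels of 0.10, -2.48, -0.90 and -1.50, with a mean of -1.20 ± 1.08. The spread of CCL25 between normoxia arrays was larger than the gap in mean to its neighbours TLR3 and IRF2. IRF2, a transcription factor of the interferon regulatory family, had the smallest normoxia spread of the 12 brightest genes, with -1.39, -1.55, -1.29 and -1.07 and a mean of -1.33 ± 0.20. CCR10, a receptor for chemokines of skin and mucosa, had a mean of -1.92 ± 0.56 from levels of -1.63, -2.14, -2.59 and -1.33. IRF1, which activates interferon-responsive genes, had a mean of -2.50 ± 0.90. IL18, a cytokine of the interleukin-1 family, had one of -2.52 ± 0.75, IL12B, the p40 chain of interleukin-12, one of -2.75 ± 1.54, and IL7, a growth factor of lymphocytes, one of -2.83 ± 2.44.

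Most neighbours in this order did not differ beyond the spread between arrays. The brighter IFNAR1 probe stood apart, since its lowest normoxia level of 2.02 was above the highest normoxia level of ISG15, which was 1.82. The second IFNAR1 probe did not, since its normoxia levels of 1.68 to 1.99 overlapped those of ISG15. From ISG15 down, the normoxia range of each gene overlapped that of the next. IL7 ranged from -0.10 on normoxia 1 to -5.98 on normoxia 2, where it was not well above background. Correcting the background with another method, or leaving out an array of normoxia, kept 11 or 12 of these 12 genes in the brightest 12.

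**Figure D2:**
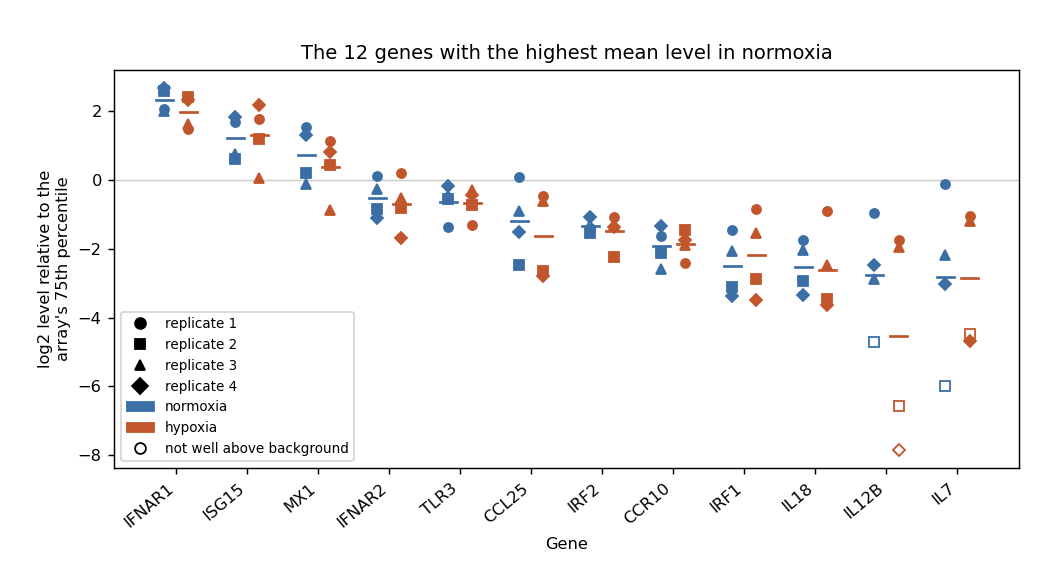
Levels of the 12 genes with the highest mean in normoxia (x axis: gene, y axis: log2 level relative to the array's 75th percentile), with normoxia in blue, hypoxia in orange, a marker shape for each replicate number, open markers where the spot was not well above background and bars for group means (n = 4 each). The orange and blue points overlap for every gene, and IL12B and IL7 spread over more than the other genes.

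The probes behaved like each other in part. For the 29 pairs of probes of 1 gene with values on all 8 arrays, the correlation of their levels over arrays had a median of 0.88 and was over 0.7 in 23 pairs. These correlations are descriptions over 8 arrays that share their slides and dim signals. The lowest was that of TLR3, whose probes gave -0.19. One TLR3 probe was lowest on the arrays numbered 1, with -1.37 in normoxia and -1.30 in hypoxia, while the other had its highest level, -0.33, on normoxia 1.

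The spread between arrays was mostly larger than that between spots of a probe. For 8 of the 73 probes the array held 5 spots. IL1B, the main secreted product of inflammasome activity, had a median SD between its spots of 0.24 on the log2 scale, against an SD between arrays of 0.99 in normoxia and 1.43 in hypoxia. For the second IFNAR2 probe the SD between spots was 0.14 and those between arrays 0.48 and 0.55. For CXCL10, a chemokine induced by interferon gamma, the figures were 0.45, 2.07 and 2.49.

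The levels of the weak probes moved with the array. The median level of the 73 probes was -2.58, -6.29, -3.53 and -4.85 on normoxia arrays 1 to 4 and -2.54, -5.51, -3.19 and -6.78 on hypoxia arrays 1 to 4. Arrays numbered 1 and 3 were thus above those numbered 2 and 4 in both groups. The median of all probes ran the same way, with -1.61, -2.94, -2.14 and -2.86 in normoxia and -1.62, -2.67, -1.71 and -2.84 in hypoxia. The 75th percentile of the processed intensity was 125, 606, 1387 and 397 in normoxia and 97.9, 347, 1241 and 880 in hypoxia. The negative control spots, 77 per array, had median log2 levels from -4.85 on hypoxia 1 to -7.93 on hypoxia 4. The probes well above background on all 8 arrays had array medians only from -0.74 to -1.75. The part of the arrays' brightness and background in the levels of the weak genes was not tested.

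**Figure D3:**
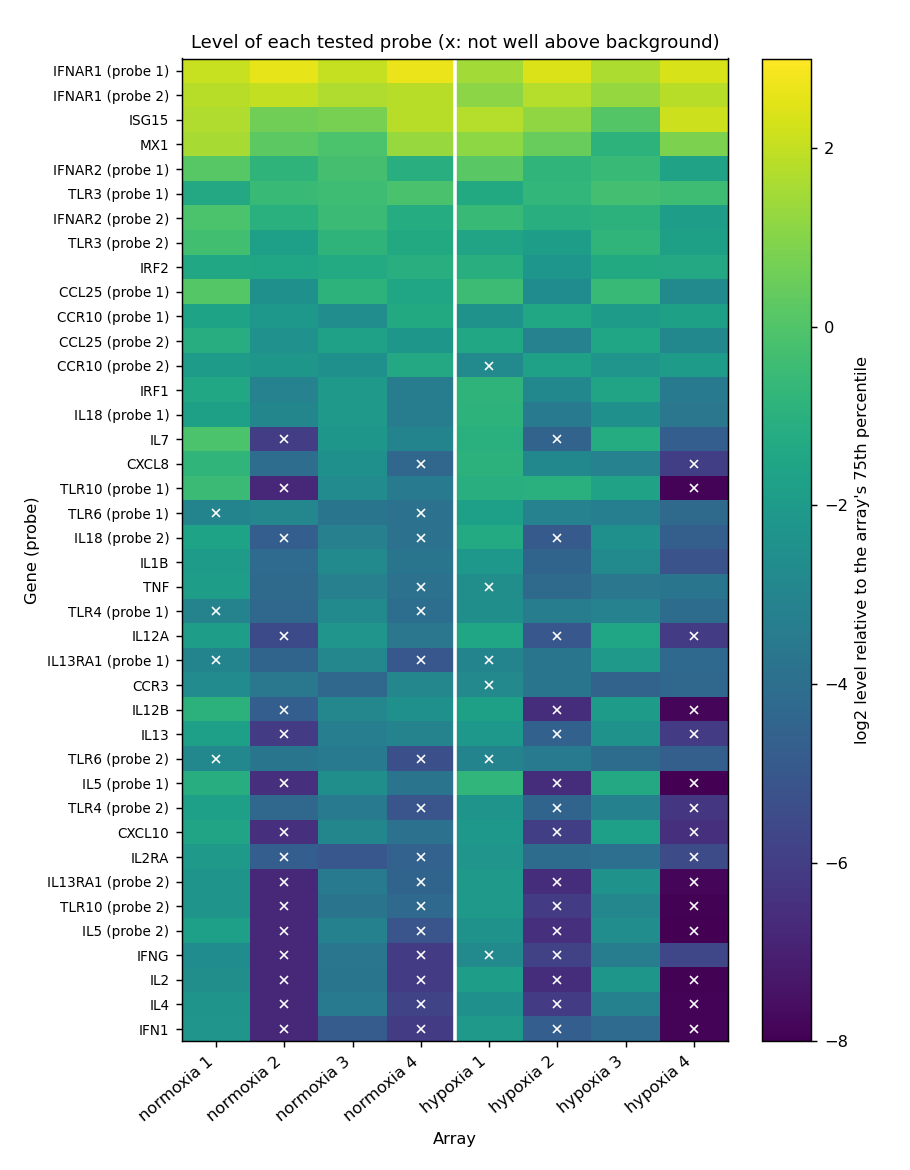
Level of each of the 40 tested probes (rows, by mean level, with the gene's name) on each of the 8 arrays (columns, normoxia left of the white line), coloured by log2 level relative to the array's 75th percentile, with a cross where the spot was not well above background. The upper rows, IFNAR1, ISG15 and MX1, are bright on all arrays, and the lower rows are dark on the arrays numbered 2 and 4 of both groups.

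Hypoxia against normoxia gave no call. With limma's moderated test and Benjamini-Hochberg adjustment over all 11216 probes, 0 of the 40 probes passed an adjusted p of 0.05, and 0% of all 11216 probes did. The adjusted p of the 40 probes was 0.998 or more. At an unadjusted p under 0.05, 0 of the 40 probes passed, against 413 of all probes, which is 3.68%, with 2.98% higher and 0.704% lower in hypoxia. The 4 hypoxia levels lay wholly above or wholly below the 4 normoxia levels in 0 of the 40 probes, against 301 of all probes, which is 2.68%, with 1.72% higher and 0.963% lower. A p that misses the threshold does not show that the groups were alike, and the intervals below, from the fit with group as the only term, show how wide the range of sizes is. The 95% confidence interval of the difference lay within a 2-fold change in either direction for 5 of the 40 probes (12.5%), against 25.3% of all probes. With the replicate number as a block it did so for 18 of the 40 (45%), against 46.4% of all probes, and the median SE of the 40 was 0.30 in place of 0.71. The numbers were taken as pairs because these same values moved together by number, so the smaller SE follows in part from that choice. Over all probes, normoxia 2 correlated more with hypoxia 4 (0.801) than with hypoxia 2 (0.726).

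The differences in mean log2 level, hypoxia minus normoxia, ran from -1.78 for IL12B to 0.58 for IL13RA1. They were above 0 for 13 probes and below 0 for 27, with a median of -0.21, against a median of -0.02 over all probes. Below 0 were 51.7% of all probes. The sign of this median turned with single arrays. It was 0.36, with 26 probes above 0, without hypoxia 4, and 0.20, with 28 above 0, without normoxia 1, against medians of 0.13 and 0.10 over all probes. Without the other arrays it was -0.61 to -0.03. With the array median as the scale in place of the 75th percentile, 7 probes were above 0 and 33 below. With normexp background correction, which also adds an offset of 50 to the intensities, 1 was above and 39 below. The median of all probes itself stood at -0.20 and -0.31 under these settings.

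Slides held groups unequally. Slide 1, which was also scan 1, held normoxia 1 and hypoxia 1 to 3, slide 2 held normoxia 2 and hypoxia 4, and slide 3 held normoxia 3 and 4. Within slide 1 the median difference of the 40 probes was -1.05, with 36 below 0, and that of all probes -0.17. Within slide 2 it was -0.46, with 26 below 0, and that of all probes 0.01. With slide as a block in the fit it was -0.76, with 36 below 0 and none called, and that of all probes -0.10. Slides 1 and 2 had only 1 normoxia array each, and slide 3 had no hypoxia array.

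**Figure D4:**
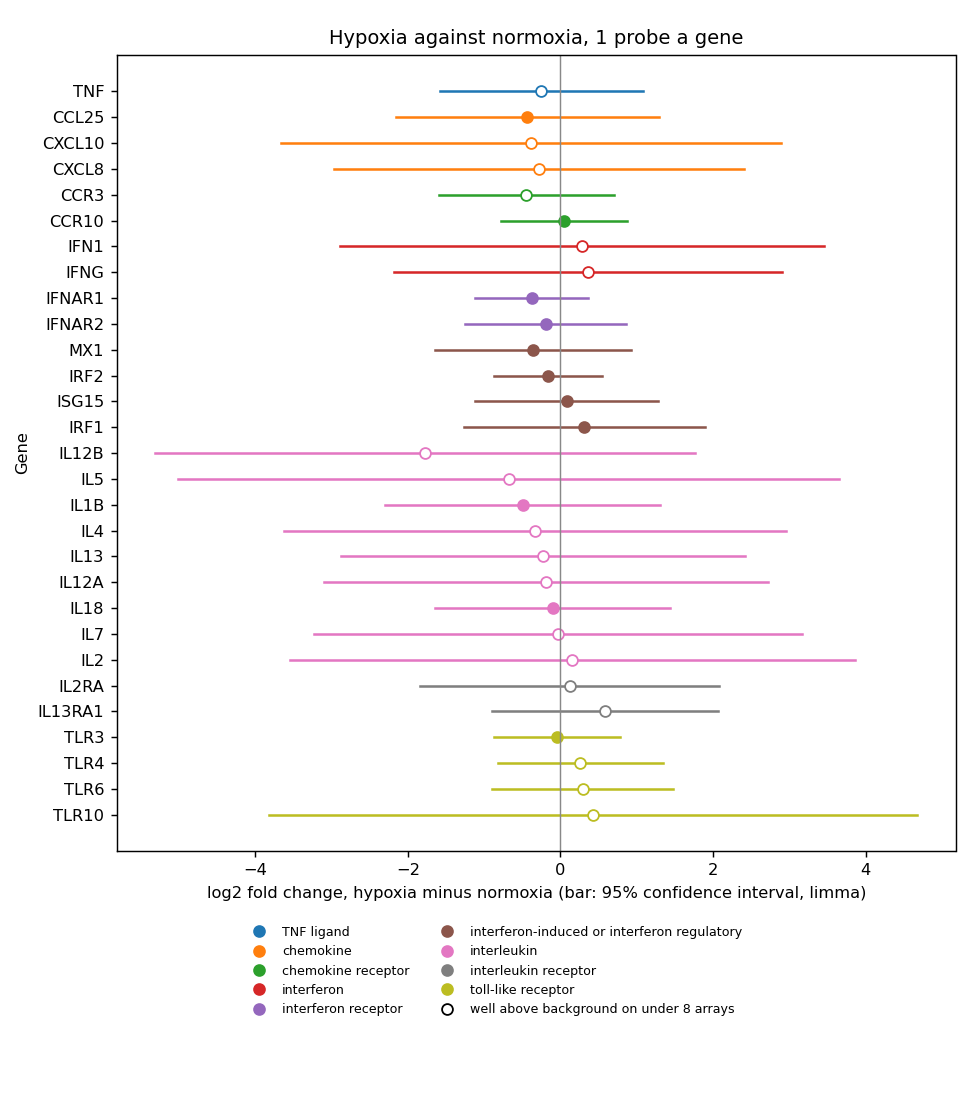
Difference in mean log2 level, hypoxia minus normoxia, for the brightest tested probe of each of the 29 genes (x axis: log2 fold change, y axis: gene, grouped and coloured by role), with 95% confidence intervals from limma (n = 4 and 4). Filled points mark genes well above background on all 8 arrays, and every interval crosses 0.

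Among the interferon receptor probes, all 4 were well above background on all 8 arrays and all 4 had differences below 0. The difference of IFNAR1 was -0.37 (SE 0.32, 95% interval -1.12 to 0.37, adjusted p = 0.998 by limma), and its second probe gave -0.34 (SE 0.26). That second probe had levels of 1.81, 1.99, 1.68 and 1.83 in normoxia and 1.07, 1.77, 1.27 and 1.84 in hypoxia. In the first IFNAR1 probe the hypoxia array was below the normoxia array of the same number in 4 of 4 pairs, by 0.19 to 0.58, and in the second in 3 of 4. Its difference stayed below 0 in every alternative run, between -0.55 and -0.22. IFNAR2 had levels of 0.19, -0.80, -0.54 and -1.68 in hypoxia, and its difference was -0.19 (interval -1.25 to 0.87). Its second probe gave -0.40 (SE 0.37) and was lower in hypoxia in 4 of 4 pairs. Among all tested probes of the group, only 3 were lower in hypoxia in 4 of 4 pairs, namely these probes of IFNAR1 and IFNAR2 and that of CCR3. Only 1, of IL13RA1, was higher in 4 of 4, and every other tested probe went both ways between pairs. The labels do not say that arrays of the same number belong together. The share of all probes with such runs was not counted. Whether such runs were more common than by chance or than over all probes was not tested.

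Interferons themselves were near the detection limit. IFNG, the type II interferon made by T cells and natural killer cells, was well above background on normoxia 1 and 3 and hypoxia 3 and 4. Its levels were -2.63, -6.75, -3.68 and -6.07 in normoxia and -2.80, -5.84, -3.39 and -5.66 in hypoxia, a fitted difference of 0.36 with an interval from -2.18 to 2.90. The values of IFNG on normoxia 2 and 4 are surrogates. A probe named IFN1 and described as interferon-alpha 4, a member of the type I family whose genes are near copies of each other and may share a probe, had levels of -2.27, -6.75, -4.81 and -6.07 in normoxia. In hypoxia it had -2.03, -4.69, -4.15 and -7.90, a fitted difference of 0.28 with an interval from -2.89 to 3.45. Its values on normoxia 2, normoxia 4 and hypoxia 4 are surrogates. For both genes the range between arrays of a group was several times the difference, and both signs turned with normexp, with slide as a block and without normoxia 2.

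Interferon-induced and interferon regulatory genes were among the best measured, with 4 of 5 probes well above background on all 8 arrays. ISG15 differed by 0.08 (interval -1.12 to 1.29) and MX1 by -0.36 (interval -1.65 to 0.93). IRF1 had levels of -1.46, -3.11, -2.06 and -3.38 in normoxia and -0.84, -2.87, -1.55 and -3.50 in hypoxia. Its difference was 0.31, and in both groups the arrays numbered 1 and 3 were above those numbered 2 and 4. IRF2 had -1.08, -2.23, -1.32 and -1.35 in hypoxia and differed by -0.17 with an interval from -0.88 to 0.54, which lies within a 2-fold change. The signs of ISG15, MX1, IRF1 and IRF2 each turned when an array was left out.

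Among chemokines, all 4 tested probes had differences below 0, from -0.43 to -0.28. CCL25 had levels of -0.48, -2.64, -0.60 and -2.78 in hypoxia, and its difference was -0.43 (SE 0.75), with -0.35 (SE 0.50) for its second probe. Without normoxia 1 the difference of CCL25 was 0.00. CXCL10 had levels of -1.56, -6.48, -2.94 and -3.86 in normoxia and -2.12, -5.95, -1.79 and -6.53 in hypoxia, with a difference of -0.39 and an interval from -3.66 to 2.89. It was well above background on 3 normoxia arrays and 2 hypoxia arrays, and its sign turned in 4 of the alternatives. At least 1 of the 5 spots of CXCL10 on normoxia 2 held a surrogate value.

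Of the chemokine receptors, CCR3, known from eosinophils, had levels of -2.67, -3.62, -4.34 and -2.93 in normoxia and -2.84, -3.72, -4.50 and -4.27 in hypoxia. Its difference was -0.45 (interval -1.59 to 0.70), and the hypoxia array was the lower in 4 of 4 pairs, by 0.17 or less in 3 of them and 1.34 in the other. Its difference was below 0 in each alternative that kept the probe, from -0.87 to -0.17, and the filter for signals on all 8 arrays dropped it. A second CCR3 probe, well above background on 1 array, was not tested. CCR10 had -2.40, -1.44, -1.90 and -1.75 in hypoxia, a difference of 0.05 with an interval from -0.78 to 0.87. Its second probe gave -0.16, and the sign of CCR10 turned in 9 alternatives, the other scalings among them.

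The 9 tested interleukin genes had 11 probes, of which 9 were below 0 and 2 above, with a median of -0.23. IL12B had the largest difference of all 40 probes, -1.78, with an SE of 1.53 and an interval from -5.31 to 1.76. Its levels were -0.95, -4.70, -2.89 and -2.48 in normoxia and -1.75, -6.57, -1.95 and -7.85 in hypoxia. The low values of IL12B on normoxia 2, hypoxia 2 and hypoxia 4 were not well above background, and those of hypoxia 2 and 4 are surrogates. Without hypoxia 4 the difference was -0.67, without hypoxia 2 -1.10, without normoxia 1 -1.17 and without hypoxia 1 -2.70, and with the arrays numbered 1 and 3 alone the difference was 0.07. A second IL12B probe was well above background on 3 arrays and was not tested.

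IL1B was well above background on all 8 arrays, with levels of -1.96, -4.17, -2.76 and -3.70 in normoxia and -2.15, -4.47, -2.76 and -5.20 in hypoxia. The difference was -0.50 (SE 0.78, interval -2.29 to 1.30), and it was 0.02 without hypoxia 4. IL18 had levels of -1.74, -2.93, -2.04 and -3.35 in normoxia and -0.89, -3.46, -2.46 and -3.65 in hypoxia, a difference of -0.10, while its second probe gave 0.04. IL7 had -1.03, -4.49, -1.20 and -4.69 in hypoxia, against -0.10, -5.98, -2.19 and -3.03 in normoxia, and its difference of -0.03 had an interval from -3.23 to 3.17. TNF, the tumor necrosis factor gene itself, had levels of -1.85, -4.20, -3.21 and -3.86 in normoxia and -2.57, -4.19, -3.63 and -3.74 in hypoxia. It differed by -0.25 (interval -1.58 to 1.08), and its sign turned without normoxia 1.

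IL13RA1, a chain of the receptor for interleukins 4 and 13, had the highest difference, 0.58 (SE 0.64, interval -0.89 to 2.06). Its levels were -3.05, -4.45, -2.90 and -4.99 in normoxia and -3.02, -3.71, -2.07 and -4.26 in hypoxia. The hypoxia array was the higher in 4 of 4 pairs, by 0.03, 0.74, 0.82 and 0.73. This probe was well above background on 5 arrays, and not on normoxia 1, normoxia 4 or hypoxia 1. Leaving out an array moved the difference between 0.19, without hypoxia 3, and 0.92, without hypoxia 4. In the fit with replicate numbers as blocks its unadjusted p was 0.0448 and its adjusted p 0.408 by limma, and it was the only one of the 40 probes below 0.05 before adjustment in that fit, in which 11.9% of all probes were. The other IL13RA1 probe gave -0.47 (SE 1.52). That probe was well above background on 4 arrays, and its values on normoxia 2 and hypoxia 2 are surrogates. The difference of the first IL13RA1 probe was -0.54 with normexp correction. IL2RA, the alpha chain of the interleukin-2 receptor and a mark of activated and regulatory T cells, had levels of -2.04, -4.70, -5.00 and -4.53 in normoxia and -2.25, -4.12, -3.98 and -5.45 in hypoxia. Its difference was 0.12 (interval -1.83 to 2.07), and the arrays numbered 1 were the highest of both groups.

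Toll-like receptors had 8 tested probes of 4 genes, 4 above and 4 below 0. TLR3 had levels of -1.30, -0.72, -0.28 and -0.44 in hypoxia, and its difference was -0.05 with an interval from -0.87 to 0.78, with -0.43 (SE 0.40) for the second probe. TLR4, the receptor for bacterial lipopolysaccharide, had levels of -3.07, -4.30, -2.77 and -4.01 in normoxia and -2.53, -3.36, -3.13 and -4.10 in hypoxia. Its difference was 0.26 (interval -0.82 to 1.34), from 0.0082 to 0.53 when an array was left out, and its second probe gave -0.40. TLR6, which pairs with TLR2, had -3.04, -2.90, -3.74 and -3.84 in normoxia and -1.79, -3.13, -3.26 and -4.18 in hypoxia, a difference of 0.29 (interval -0.89 to 1.48), and 0.02 for its second tested probe. TLR10 had levels of -0.51, -6.73, -2.67 and -3.50 in normoxia and -1.12, -1.02, -1.64 and -7.91 in hypoxia. Its difference of 0.43 had an interval from -3.82 to 4.68, the widest of the named genes, and its value on hypoxia 4 is a surrogate. The second TLR10 probe gave -0.48, and its values on normoxia 2 and hypoxia 4 are surrogates. On hypoxia 2 the first TLR10 probe stood at -1.02 and the second at -6.08.

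Of the 11 pairs of tested probes of 1 gene, 6 had differences of the same sign and 5 of opposite sign. The pairs of opposite sign were those of CCR10, IL18, IL13RA1, TLR4 and TLR10. Precision differed with brightness. The 15 tested probes well above background on all 8 arrays had a median SE of 0.46, while the other 25 had a median SE of 1.16. All 11216 tested probes, dim ones included, had a median SE of 0.44. The median difference of the 15 was -0.34, with 3 above 0 and 12 below. It was -0.03 over the 7445 probes of the array well above background on all 8 arrays. CCL25, IFNAR1, IFNAR2 and TLR3 had more than 1 probe each among the 15.

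Genes of the same pathways that are not in the group were few on this array under their own names. Of 42 genes that act at or downstream of cytokine and toll-like receptors, 7 were on the array by name and tested. They had 5 differences above 0 and 2 below, none called at an adjusted p of 0.05 by limma and a median of 0.41. CD14, with -0.08, was 1 of the 7 and is counted again among the leukocyte markers below. NFKBIA, the inhibitor that NF-kappa-B induces, was bright, with a mean of 2.34 in normoxia and a difference of 0.12. STAT5A, which carries signals of several interleukin receptors, had the largest difference, 1.13 (SE 0.43, unadjusted p = 0.0303, adjusted p = 0.998 by limma). It was the only one of the 7 below 0.05 before adjustment, where 3.68% of all probes were. STAT5A was dim, with means of -4.05 in normoxia and -2.92 in hypoxia, was well above background on 6 arrays, and its groups overlapped. MYD88, well above background on 5 arrays, differed by 0.41 (SE 0.98) and FOS by 0.57 (SE 0.36), and both groups overlapped in each. Of the interferon-stimulated genes with other names, only MX2 was tested, with 0.43 (SE 0.62).

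Of 23 adhesion and effector genes of inflamed vessels, 9 were tested, 5 above 0 and 4 below, with a median of 0.00 and none called. ICAM1, which holds leukocytes to the endothelium, differed by 0.43 (SE 0.41), and PTGS2, the inducible prostaglandin synthase, by -0.31 (SE 0.28). VCAM1, another adhesion molecule, was well above background on 4 arrays and differed by -0.25. Leukocyte markers were 8 of a list of 31, and all 8 had differences below 0, with a median of -0.45 and none called. The sum of their linear levels was 2.17 to 4.32 times the array's 75th percentile in normoxia and 1.21 to 3.68 in hypoxia. FCER1G, an Fc receptor chain of myeloid cells, was the only one of the 8 without overlap between groups, with a difference of -0.72 (SE 0.27, unadjusted p = 0.0297, adjusted p = 0.998 by limma). Over all probes, 2.68% had no overlap, with 0.963% lower in hypoxia. CD3E, CD3D and CD4 of T cells were well above background on 6, 4 and 4 arrays. CD1D, the only thymus and lymph node marker tested of a list of 11, differed by -0.04, and the haemoglobin gene HBB, the only erythroid marker, by 0.36. The 3 smooth muscle markers tested had differences below 0, with a median of -0.60, and summed levels of 415 to 1177 times the 75th percentile in normoxia and 201 to 864 in hypoxia. The 4 endothelial markers had 2 differences above and 2 below 0, with a median of -0.01. Of these 4, only NOS3 was well above background on all 8 arrays. NOS3 differed by 1.12 (SE 0.58, unadjusted p = 0.0869, adjusted p = 0.998 by limma), and its groups overlapped. The 3 fibroblast markers had 2 differences above and 1 below 0, with a median of 0.54. The part of cell makeup in the levels of the cytokine genes was not tested.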

How the data were processed

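Carotid artery RNA of 8 fetal sheep was measured on 8 Cy3 arrays of Agilent design 019921. The authors deposited scanner output, which gives the linear intensity of each spot from Agilent Feature Extraction 9.5.3.1, protocol GE1-v5_95_Feb07, per the file headers, and its flags for spots well above background or outlying. The processed intensity is background-subtracted by that software, per the file headers, and the labels' protocols state no scaling between arrays. The authors' series table holds a ratio of the processed intensity to a value near each array's 75th percentile, as its values show, and was an alternative only.

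From the scanner files, outlier-flagged spots were left out, spots of a probe were averaged, log2 was taken and each array's 75th percentile over non-control probes subtracted. Probes well above background on at least 4 arrays, with a value on all 8, were fitted with limma 3.58.1 under R 4.3.3 (empirical Bayes moderation), with group as the only term and Benjamini-Hochberg adjustment over 11216 probes at 0.05. The fit was tested on simulated data with independent noise and a spread capped below that of most probes. That test does not show how well the fit finds changes in the weak probes. The number of arrays limits the precision.

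The genes and the lists were chosen with earlier results of these data known. With the brightest probe for each gene, the genes named are the 12 brightest in normoxia, any without overlap between groups, the 6 with the smallest p in each direction and the 2 with the smallest p in each role, which came to 23. Probes detected on under 4 arrays are given by counts, and the cytokines and receptors named among them were picked as well known. The array's gene names were updated through RefSeq genes of assembly ARS-UI_Ramb_v3.0 where a match existed. The alternatives were other background, scaling, filter, slide, weight and pairing choices, the authors' table and leaving out each array. Arrays of the same number in each group deviated together, with correlations over all probes of 0.820, 0.726, 0.584 and 0.434, so the numbers were taken as pairs. This pairing comes from the values alone, and normoxia 2 correlated more with hypoxia 4 (0.801).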

Additional observations from a re-analysis of the deposited data

Results flagged for a closer look

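The level of IL2RA on normoxia 1 was -2.04, while the nearest of the other 3 normoxia arrays was at -4.53, a gap that is 0.84 of the group's range. On hypoxia 1 IL2RA stood at -2.25, also the highest of its group. The level of TLR10 on hypoxia 4 was -7.91, a surrogate value put in by the scanner software, while the nearest of the other 3 hypoxia arrays was at -1.64, a gap that is 0.91 of the range. Both gaps are above Dixon's 95% critical value for 4 samples. In all, 48 groups of 4 values were examined in this way, and chance alone marks about 5% of such groups. Explanations were not tested.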

How the results depend on the processing

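No probe of the group and no probe of the array passed an adjusted p of 0.05 in any of the 20 alternatives run with limma. At an unadjusted p under 0.05, 0 of the 40 probes passed, and 1 did under quantile normalization, under cyclic loess, with the replicate block and with the arrays numbered 2 and 4 only. Over all probes the count of 413 became 24 with normexp, 138 with median scaling, 199 with slide as a block, 1337 with the replicate block, 1365 with array weights, 158 with arrays numbered 1 and 3 only and 854 with those numbered 2 and 4 only, and 173 to 616 when an array was left out. These subsets by number and the negative control threshold below were chosen after seeing the data. The replicate block changed no call at the adjusted threshold. The cause of these shifts, and of the turns of sign below, was not tested. Counting spots by the scanner's flag for a positive and significant signal gave a mean of 58.6 probes per array in place of 39.9, and counting those with an intensity above the 95th percentile of negative controls gave 57.8.

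The median difference of the 40 probes was -0.61 to 0.36 when an array was left out. Among the named genes, 79 of 448 values under alternatives had the opposite sign to the main one. With normexp this held for CCR10 (-0.10), IFN1 (-0.74), IFNG (-0.81), IRF1 (-0.54), ISG15 (-0.0019), IL13RA1 (-0.54), IL2RA (-0.71), TLR10 (-0.56), TLR3 (0.088), TLR4 (-0.68) and TLR6 (-0.52). With slide as a block it held for CCR10 (-0.019), IFN1 (-1.27), IFNG (-0.39), IRF1 (-0.33), IL2RA (-1.14), TLR10 (-0.92), TLR3 (0.42) and TLR6 (-0.32). Other scalings turned CCR10 (quantile -0.26, median -0.13, cyclic loess -0.15), ISG15 (median -0.093) and IL2RA (median -0.057), and array weights turned IL7 (0.13). Arrays numbered 1 and 3 only turned CXCL10 (0.30), CCR10 (-0.042), IRF2 (0.14), ISG15 (-0.30), IL12B (0.072), IL18 (0.22), IL7 (0.026) and TLR3 (0.11), and those numbered 2 and 4 only turned TNF (0.069), IL2RA (-0.17) and TLR6 (-0.28).

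When an array was left out, the difference ranged from -0.57 to 0.23 for TNF, -0.86 to 0.00097 for CCL25, -1.31 to 0.43 for CXCL10, -0.18 to 0.25 for CCR10, -0.61 to 1.35 for IFN1, -0.29 to 1.08 for IFNG, -0.49 to 0.13 for IFNAR2, -0.14 to 0.75 for IRF1, -0.31 to 0.076 for IRF2, -0.21 to 0.49 for ISG15, -0.64 to 0.060 for MX1, -2.70 to -0.67 for IL12B, -0.67 to 0.25 for IL18, -0.99 to 0.021 for IL1B, -1.08 to 0.88 for IL7, 0.19 to 0.92 for IL13RA1, -0.45 to 0.80 for IL2RA, -0.70 to 2.09 for TLR10, -0.29 to 0.16 for TLR3, 0.0082 to 0.53 for TLR4 and -0.14 to 0.65 for TLR6. The median SE was 1.16 for the 25 tested probes not well above background on all 8 arrays and 0.46 for the other 15, and the part of signal over background in this was not tested.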
